A study of Mus musculus with 4 samples.

Results

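The fibrillar collagen genes are the 7 genes Col1a1, Col1a2, Col3a1, Col5a1, Col5a2, Col5a3 and Col11a1, taken by symbol from a table of 56748 gene IDs. All 7 were found, and all 7 passed a filter of 1 CPM (counts per M counts of the library, after scaling) on average over the 4 libraries, which 14365 genes passed. Bulk RNA-seq of mouse prostate fibroblasts in culture gave 1 library each for BuOE with radiation, PBS with radiation, BuOE and PBS. All groups were labelled CB57BL/6 in genotype, and the cells came from male C57BL/6 mice of 8 to 10 weeks. The irradiated mice received 37.5 Gy to the pelvis behind lead shielding of the rest of the body, in fractions of 7.5 Gy over 5 days, and fibroblasts were taken from collagenase-digested prostates into serum-containing culture before RNA was isolated. BuOE stands within the name of the manganese porphyrin that the title mentions, and PBS is phosphate-buffered saline, its control. The labels of these libraries give neither its dose and timing nor whether animals or cultures received it, and they do not say how many animals or cultures stand behind a library. There is no replicate of any condition: each ratio compares a pair of libraries and not a pair of conditions, and each interval covers counting error only.

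Fibrillar collagens are secreted as procollagens of 3 chains wound into a triple helix of Gly-X-Y repeats, trimmed at their ends outside the cell and assembled into fibrils. Type I collagen, built from Col1a1 and Col1a2 chains, and type III collagen, a homotrimer of Col3a1 chains, make up the bulk of fibrils in soft connective tissue, and both accumulate in fibrosis. Type V collagen, built from Col5a1 and Col5a2 chains and in some tissues Col5a3, is a minor component that starts fibrils and limits their width. Col11a1 encodes a chain of type XI collagen, which plays that part in cartilage fibrils and can join type V chains elsewhere.

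The 7 genes lie on 6 mouse chromosomes, Col1a1 on chromosome 11, Col1a2 on 6, Col3a1 and Col5a2 on 1, Col5a1 on 2, Col5a3 on 9 and Col11a1 on 3. Their identifiers in the table are ENSMUSG00000001506 for Col1a1, ENSMUSG00000029661 for Col1a2, ENSMUSG00000026043 for Col3a1, ENSMUSG00000026837 for Col5a1, ENSMUSG00000026042 for Col5a2, ENSMUSG00000004098 for Col5a3 and ENSMUSG00000027966 for Col11a1. Col3a1 and Col5a2 are direct neighbours, with 0 annotated genes between them in RefSeq (GRCm38.p6). The genes share an exon pattern. It is not independent of their choice as fibrillar collagens, which carry Gly-X-Y repeats. In the transcript with the longest coding sequence, 326 of their 394 inner coding exons (82.7%) had a length that is a multiple of 9 bases, the length that encodes 1 Gly-X-Y triplet, against 14.1% of 158952 inner coding exons in 17013 other protein-coding genes. Exons of exactly 54 bases made up 46.7% of the members' inner coding exons and 0.618% of those of the other genes. Coding exons numbered 51 in Col1a1 and Col3a1, 52 in Col1a2, 54 in Col5a2, 66 in Col5a1, and 67 in Col5a3 and Col11a1.

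RefSeq promoter windows (GRCm38.p6, 250 bases before to 50 after the gene start) were matched for 5 of the 7 genes, and the stretches before the transcribed part are shown because 4 of these genes (Col1a2, Col3a1, Col5a1 and Col11a1) were highest in the same library and Col5a3 was not. Capitals mark the letters searched on both strands, which were CCAAT (the CCAAT box), GGGCGG (the GC box), TATAAA (the TATA box) and TGACTCA (an AP-1 site); CCGCCC and ATTGG are the GC box and the CCAAT box read on the opposite strand, and no matches shown overlap.
Col1a2, chr6:4505370-4505492, plus strand: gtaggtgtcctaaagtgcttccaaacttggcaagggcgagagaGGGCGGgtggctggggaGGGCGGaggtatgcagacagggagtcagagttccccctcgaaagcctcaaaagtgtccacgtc
Col3a1, chr1:45311388-45311537, plus strand: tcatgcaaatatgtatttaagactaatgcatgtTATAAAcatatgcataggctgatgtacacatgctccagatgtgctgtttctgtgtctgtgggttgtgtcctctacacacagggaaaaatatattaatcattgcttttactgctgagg
Col5a1, chr2:27886231-27886380, plus strand: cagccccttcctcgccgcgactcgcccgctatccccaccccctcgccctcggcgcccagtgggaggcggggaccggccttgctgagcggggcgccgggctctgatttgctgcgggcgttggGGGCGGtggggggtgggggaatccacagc
Col5a3, chr9:20815118-20815267, minus strand: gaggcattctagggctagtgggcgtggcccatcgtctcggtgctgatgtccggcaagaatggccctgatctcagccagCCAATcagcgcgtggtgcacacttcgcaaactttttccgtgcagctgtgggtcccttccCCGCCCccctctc
Col11a1, chr3:114030329-114030478, plus strand: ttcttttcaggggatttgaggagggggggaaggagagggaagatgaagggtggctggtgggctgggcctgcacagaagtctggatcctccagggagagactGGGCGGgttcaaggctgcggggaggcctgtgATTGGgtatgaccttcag
Within the whole 300-base windows, the GC box was present for 4 of 5 genes (Col1a2, Col5a1, Col5a3 and Col11a1), against 35.7% of 32851 mouse windows. The CCAAT box was present for 3 of 5 (Col1a2, Col5a3 and Col11a1), against 37.4% of windows, and the TATA box for Col3a1 only, against 13.6%. The AP-1 letters were in 0 of the 5 windows and in 5.20% of all windows. Col3a1 differed from the other 4 in this, with the letters of a TATA box and those of neither a GC box nor a CCAAT box in its window. Its TATAAA letters began 117 bases before the end of the stretch shown. These matches are letters in a window and not shown binding sites.

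Depth was 25.0 M counted reads for irradiated BuOE, 35.9 M for irradiated PBS, 28.9 M for BuOE and 29.7 M for PBS. All 13 fibroblast markers, among them Pdgfra, Vim and Dcn, were detected in every library, and their sum was 4641 CPM in the irradiated BuOE library, 5129.6 in the irradiated PBS library, 3964 in the BuOE library and 4914 in the PBS library. Markers of epithelium were present at a like level, at 5431, 3343, 4941 and 3662 CPM in the same order, with all 10 (among them Epcam, Cdh1 and Krt5) detected in every library, so the label fibroblast alone does not describe the markers found. Of the other lists, smooth muscle markers summed to 947 to 1691 CPM, pericyte markers to 370.1 to 589, endothelial markers to 416 to 708, macrophage markers to 331 to 508, Schwann cell markers to 81.7 to 237, neuronal markers to 24.1 to 403 and adipocyte markers to 43.0 to 304. Of the 6 adipocyte markers, Lep was at 0 in the irradiated BuOE library, and Adipoq and Lep were at 0 in the BuOE library; no marker of the other lists was at 0. Of the 5 cartilage genes only Sox9, which epithelium also expresses, passed the filter. The 13 mitochondrially encoded mRNAs took 2.64% of the counts in the irradiated BuOE library and 0.403% to 0.864% in the other 3.

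As a group the 7 fibrillar collagen genes were highest in the irradiated PBS library and lowest in the irradiated BuOE library. They took 0.399% of all counts in the irradiated BuOE library, 0.972% in the irradiated PBS library, 0.680% in the BuOE library and 0.686% in the PBS library. In scaled CPM the sums were 4107, 9794, 6472 and 6951 in the same order. The BuOE and PBS libraries thus held nearly the same share of these genes, and the irradiated libraries lay on opposite sides of it. In bulk RNA fewer cells that make collagen and less collagen mRNA per cell cannot be told apart.

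**Figure D1:**
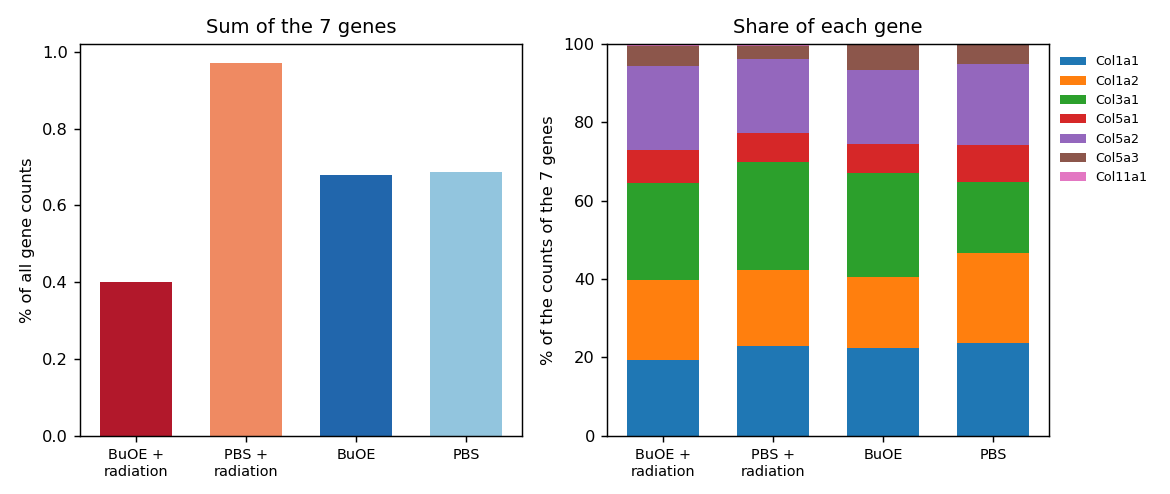
Left, counts of the 7 fibrillar collagen genes as a percent of all gene counts in each library; right, the share of each gene among the counts of the 7. The sum was 0.399% in the irradiated BuOE library and 0.972% in the irradiated PBS library, and the green Col3a1 band was narrowest in the PBS library (18.2%).

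Col1a1, which encodes the major chain of type I collagen, stood at 795 CPM in the irradiated BuOE library, 2249 in the irradiated PBS library, 1443 in the BuOE library and 1652 in the PBS library. Its partner Col1a2 stood at 840, 1899, 1173 and 1593 CPM in the same order. The order of the libraries was the same for both type I genes, with the irradiated PBS library highest, then PBS, then BuOE, and the irradiated BuOE library lowest. Col3a1, the gene of type III collagen, stood at 1012 CPM in the irradiated BuOE library, 2687 in the irradiated PBS library, 1725 in the BuOE library and 1264 in the PBS library. Here the BuOE library lay above the PBS library, unlike for type I.

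Among the type V genes, Col5a1 stood at 348 CPM in the irradiated BuOE library, 739.9 in the irradiated PBS library, 483 in the BuOE library and 642 in the PBS library. Col5a2, whose chain pairs with that of Col5a1, stood at 883, 1857, 1221 and 1443 CPM in the same order. Both followed the library order of Col1a1 and Col1a2. Col5a3, the gene of the tissue-restricted type V chain, stood at 212 CPM in the irradiated BuOE library, 320.1 in the irradiated PBS library, 409 in the BuOE library and 332 in the PBS library. It was the only member whose highest level was not in the irradiated PBS library. Col11a1 was far lower than the rest, at 17.1 CPM in the irradiated BuOE library, 43.1 in the irradiated PBS library, 17.5 in the BuOE library and 25.3 in the PBS library. Its values in the irradiated BuOE and the BuOE libraries were 415 and 531 reads and did not differ beyond counting error.

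**Figure D2:**
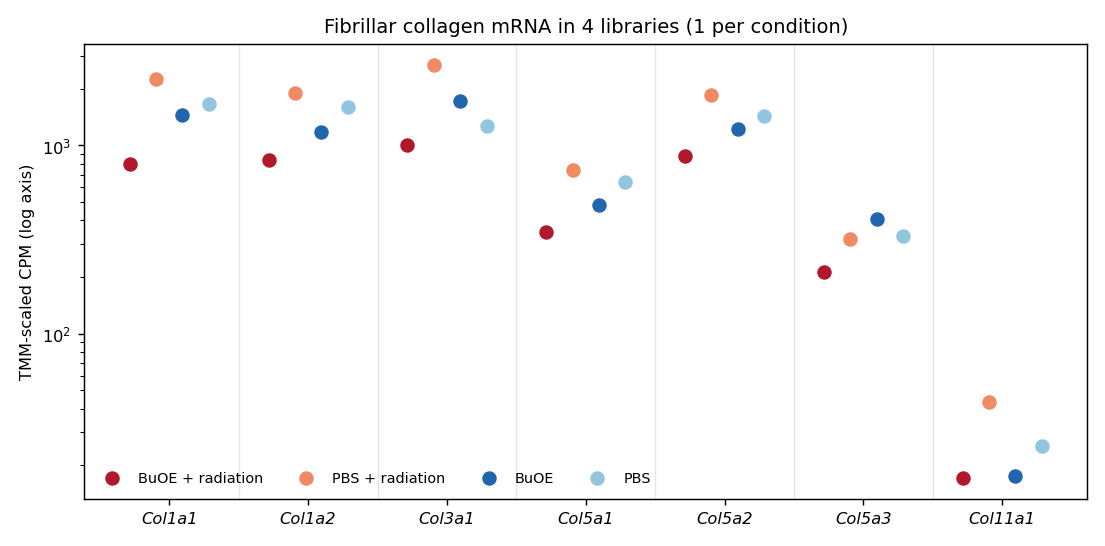
TMM-scaled CPM of each fibrillar collagen gene on a log axis, 1 point per library. The irradiated BuOE library (dark red) is the lowest point for all 7 genes and the irradiated PBS library (orange) the highest for 6, the exception being Col5a3.

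Counted by position, 6 of 7 members had their highest level in the irradiated PBS library, against 17.5% of all 14365 genes, and 7 of 7 their lowest in the irradiated BuOE library, against 35.3%. Both held for 6 members, against 7.89% of all genes. The place of Col11a1 at the bottom turned with the scaling: its log2 ratio of irradiated BuOE to BuOE was 0.0042 with DESeq2 size factors and 0.01 with TMM factors from the genes that passed the filter. The span between the highest and the lowest library was 2.83-fold for Col1a1, 2.66-fold for Col3a1, 2.53-fold for Col11a1, 2.26-fold for Col1a2, 2.13-fold for Col5a1, 2.10-fold for Col5a2 and 1.93-fold for Col5a3. On the log2 scale these spans were 0.95 to 1.4995, and the median span was 0.50 among genes that averaged 10 CPM or more.

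Compared per length, with the union of all annotated exons as the length, the scaled levels in the irradiated PBS library were 343 CPM per kb for Col1a1, 274 for Col3a1, 194 for Col5a2, 153 for Col1a2, 87.2 for Col5a1, 47.0 for Col5a3 and 3.39 for Col11a1. In the irradiated BuOE library Col1a1 had 121 CPM per kb, Col3a1 103, Col5a2 92.1, Col1a2 67.6, Col5a1 41.0, Col5a3 31.1 and Col11a1 1.34. The union can be far longer than the longest transcript, as for Col1a2 with 12426 against 5348 bases, and with the longest transcript as the length the order of the abundant genes was different. By that length Col3a1 led in the irradiated PBS library with 483 CPM per kb, followed by Col1a1 with 379, Col1a2 with 355 and Col5a2 with 280.2. The order of Col1a1, Col1a2, Col3a1 and Col5a2 is therefore not settled by these counts, whereas Col5a1, Col5a3 and Col11a1 were, in that order, the lowest 3 in that library by either length.

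The first comparison sets the irradiated PBS library against the PBS library. Here 6 of 7 members had a ratio above 0, against 50.4% of all genes, and 1 a ratio below 0, against 49.6%, with a median log2 ratio of 0.36 for the members and 0.0036 for all genes. Col3a1 had the highest ratio, 1.09 (95% counting interval 1.07 to 1.11), and was the only member at least 2-fold higher (2.13-fold), against 5.62% of all genes. Col11a1 followed with 0.77 (0.64 to 0.90), or 1.71-fold. Col1a1 had a ratio of 0.44, Col5a2 0.36, Col1a2 0.25 and Col5a1 0.20. Col5a3 lay slightly on the other side at -0.05 (-0.09 to -0.01), and no member was 2-fold lower, against 1.02% of all genes. The neighbours Col3a1 and Col5a2 were thus 2.13-fold and 1.29-fold higher in this comparison. Between the same libraries 8 of 13 fibroblast markers had a ratio above 0 (median 0.29), as had 7 of 7 smooth muscle markers (0.62), 7 of 7 endothelial markers (1.20), 4 of 6 pericyte markers (1.48), 6 of 6 Schwann cell markers (1.87) and 6 of 6 neuronal markers (median 3.300). Epithelial markers were above 0 for 4 of 10 (-0.07), macrophage markers for 0 of 6 (-0.15) and adipocyte markers for 0 of 5 (-4.61). Their part in the collagen ratios was not tested.

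In the BuOE arm the irradiated BuOE library was set against the BuOE library. All 7 members had a ratio below 0, against 53.8% of all genes, and 0 a ratio above 0, against 46.2%, with a median of -0.48 against -0.03 over all genes. None reached 2-fold, which 4.94% of all genes did downwards and 2.27% upwards. Past 2-fold lower came Col5a3 with library size alone (-1.06) and without mitochondrial genes (-1.03), and both Col5a3 (-1.18) and Col1a1 (-1.09) with scaling to the fibroblast markers. More of all 14365 genes were past it too, 853, 815 and 1082 with these scalings in turn. With the main scaling 709 were. Col5a3 had the lowest ratio, -0.95 (-0.997 to -0.903), followed by Col1a1 with -0.86 (-0.88 to -0.84) and Col3a1 with -0.77 (-0.79 to -0.75). Col1a2, Col5a1 and Col5a2 lay close together at -0.48, -0.47 and -0.47. Col11a1 had a ratio of -0.04, with an interval that includes 0 (-0.23 to 0.15), and its sign turned with DESeq2 size factors. Scaled to the sum of the 13 fibroblast markers, the median of the 7 was -0.71. Fibroblast markers had a ratio above 0 for 8 of 13 members (median 0.03), smooth muscle markers for 6 of 7 (0.48), endothelial markers for 4 of 7 (0.03), and pericyte (median -0.53), Schwann cell (-0.83) and neuronal markers (-3.92) for 0 of 6 each. Epithelial markers were above 0 for 4 of 10 (-0.17), macrophage markers for 4 of 6 (0.35) and adipocyte markers for 5 of 5 (1.64). Their part was not tested.

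**Figure D3:**
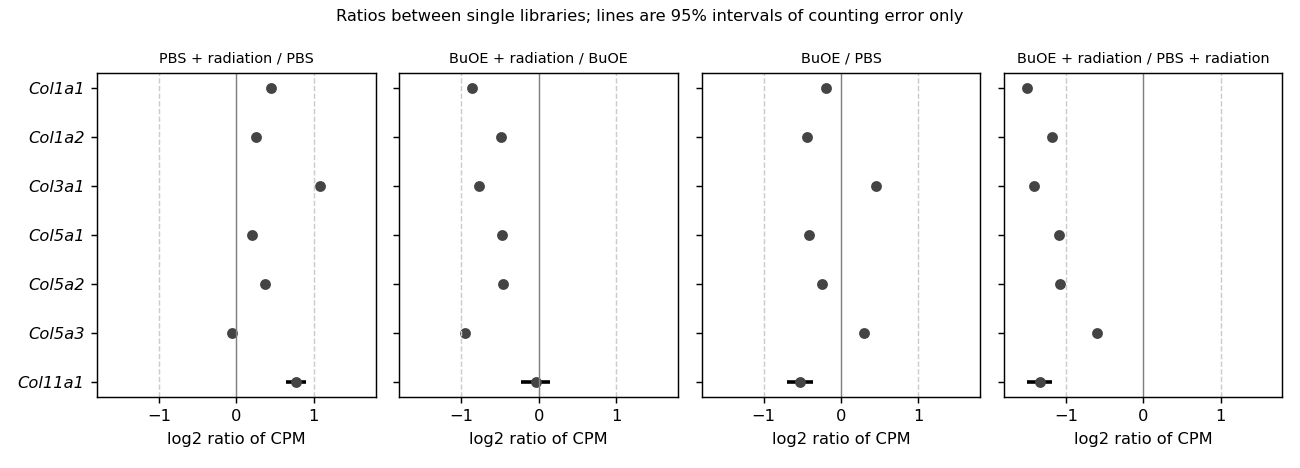
Log2 ratio of scaled CPM for each fibrillar collagen gene in the 4 comparisons of single libraries; points are the ratios, lines their 95% counting intervals and dashed lines mark 2-fold. In the radiation comparison 7 of 7 genes lie left of 0 in the BuOE arm and 6 of 7 right of 0 in the PBS arm.

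The radiation ratio was below 0 in the BuOE arm and above 0 in the PBS arm for 6 of 7 members, against 23.3% of all genes. These ratios come from library pairs that share no library. The BuOE arm minus the PBS arm was -1.86 for Col3a1 (95% counting interval -1.89 to -1.83) and -1.30 for Col1a1 (-1.33 to -1.28), the only members past a 2-fold difference, against 8.76% of all genes that far below 0 and 2.7% that far above it. Col5a3 passed that limit too with library size alone (-1.02) and with the fibroblast marker sum (-1.06). Of all 14365 genes 1454 and 1534 lay that far below 0 with these scalings, and 1258 with the main scaling. All 7 differences were below 0, against 53% of all genes. Col5a3 had a difference of -0.90, Col5a2 of -0.83, Col11a1 of -0.81 (-1.03 to -0.58), Col1a2 of -0.73 and Col5a1 of -0.68. The median of the 7 was -0.83, and that of all genes -0.03. The pattern was not particular to the 7. In the PBS arm Col4a1, Col4a2, Col6a1 and Col6a2 were 4 of 4 above 0, against 50.4% of all genes. In the BuOE arm they were 4 of 4 below 0, against 53.8%, and their median difference was -1.09. Of the 3 other fibrillar collagen genes past the filter, 2 were above 0 in the PBS arm. All 3 were below 0 in the BuOE arm, with a median difference of -1.24. The difference between the arms has no replicate check and was not tested.

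Without radiation, the BuOE library against the PBS library split the members. Col3a1 (0.45, 0.43 to 0.47) and Col5a3 (0.30, 0.27 to 0.34) were higher in the BuOE library, and Col11a1 (-0.53, -0.69 to -0.37), Col1a2 (-0.44), Col5a1 (-0.41), Col5a2 (-0.24) and Col1a1 (-0.20) were lower, so that 2 of 7 were above 0, against 48.8% of all genes. The median was -0.24, against -0.01 over all genes, and no member reached 2-fold, which 8.72% of all genes did upwards and 4.23% downwards. Of the fibroblast markers 3 of 13 were above 0 (median -0.35). Scaled to the sum of those markers, Col1a1 (0.11) and Col5a2 (0.07) changed side, and the median of the 7 became 0.07, while the median of all genes became 0.30. All 10 epithelial markers had a ratio above 0 (median 0.52), as had 6 of 6 Schwann cell (2.46), 6 of 6 neuronal (4.89) and 5 of 6 pericyte markers (1.85). So had 7 of 7 endothelial (0.71), 5 of 6 macrophage (0.36) and 4 of 7 smooth muscle markers (0.35), while 0 of 5 adipocyte markers had (-4.75). The smooth muscle sum was nevertheless lower, at 947 against 1478 CPM, with Acta2 at 308 against 782 CPM. The part of these markers in the collagen ratios was not tested.

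Between the irradiated libraries, the irradiated BuOE library was lower than the irradiated PBS library for 7 of 7 members, against 56.2% of all genes lower and 43.8% higher. It was at least 2-fold lower for 6 of 7, against 5.92% of all genes, and 2-fold higher for 0, against 3.81%. Col1a1 had a ratio of -1.4995 (-1.52 to -1.48), Col3a1 of -1.41 (-1.43 to -1.39), Col11a1 of -1.33 (-1.50 to -1.18), Col1a2 of -1.18, Col5a1 of -1.09 and Col5a2 of -1.07. Col5a3 lay at -0.59 (-0.64 to -0.55). Of all genes 2.69% had a ratio below that of Col1a1, and 14.3% had one below that of Col5a3. The median of the 7 was -1.18, against -0.07 over all genes. Fibroblast markers were above 0 for 3 of 13 (median -0.47), with Vim at 1501 against 2073 CPM but Pdgfra at 1048 against 893 and Dcn at 1324 against 994. Scaled to the marker sum, the median of the 7 was -1.03 and 4 members stayed past 2-fold, as did 667 of all 14365 genes. That sum was 4641 against 5129.6 CPM, and Vim, Dcn and Pdgfra were its largest parts. It does not stand for the median marker. Nor does the smooth muscle sum, which was lower at 1164 against 1691 CPM, with Acta2 at 298 against 845 CPM. Epithelial markers were above 0 for 10 of 10 (median 0.61), macrophage markers for 6 of 6 (0.67), smooth muscle markers for 4 of 7 (0.29), pericyte markers for 4 of 6 (0.05), Schwann cell markers for 2 of 6 (-0.28), endothelial markers for 1 of 7 (-0.41), neuronal markers for 0 of 6 (-2.20) and adipocyte markers for 4 of 5 (1.10). Their part was not tested. The 4 comparisons share libraries, so their ratios are not independent of each other.

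The ratio of chains within a library needs no scaling between libraries, and it separated the members further. The ratio of Col1a1 to Col1a2 reads was 0.947 in the irradiated BuOE library (95% counting interval 0.928 to 0.965), 1.18 in the irradiated PBS library, 1.23 in the BuOE library and 1.04 in the PBS library. Its span over the 4 libraries was 1.30-fold, with the 2 BuOE libraries at the ends. Its log2 difference between the irradiated and the unirradiated library was -0.38 (-0.41 to -0.34) in the BuOE arm and 0.19 (0.17 to 0.21) in the PBS arm. Per kb of exon union the ratio was 1.79, 2.24, 2.33 and 1.965 in the same order of libraries, and per kb of the longest transcript 0.854, 1.07, 1.11 and 0.936. The level of the ratio therefore depends on the length used by over 2-fold, and only its difference between libraries can be read.

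The ratio of Col3a1 to Col1a1, type III against type I, was 1.27 in the irradiated BuOE library, 1.19 in the irradiated PBS library, 1.19 in the BuOE library and 0.765 in the PBS library (0.755 to 0.775). The PBS library stood apart from the other 3, which lay within 1.06-fold of each other. Against the PBS library the ratio was 1.56-fold higher in the irradiated PBS library and 1.56-fold higher in the BuOE library. Both of these differences rest on the same PBS library. In the share of counts among the 7 genes, Col3a1 held 24.6% in the irradiated BuOE library, 27.4% in the irradiated PBS library, 26.6% in the BuOE library and 18.2% in the PBS library.

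Col5a1 and Col5a2, the core type V chains, had a ratio that was close in 3 of the 4 libraries. It was 0.394 in the irradiated BuOE library (0.384 to 0.404), 0.399 in the irradiated PBS library (0.393 to 0.404), 0.396 in the BuOE library (0.388 to 0.404) and 0.445 in the PBS library (0.438 to 0.453). The first 3 values did not differ beyond counting error, and the PBS library was again the odd value, with a span of 1.13-fold in all. Pairs of chains of other collagens had spans of a like size, 1.07-fold for Col4a1 to Col4a2 of basement membranes and 1.21-fold for Col6a1 to Col6a2 of microfibrils.

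Col5a3 and Col11a1 differed in pattern from Col5a1. The ratio of Col5a3 to Col5a1 reads was 0.609 in the irradiated BuOE library, 0.433 in the irradiated PBS library, 0.847 in the BuOE library and 0.516 in the PBS library, a span of 1.958-fold. It was lower in the irradiated library of both arms, with a log2 difference of -0.47 (-0.54 to -0.41) in the BuOE arm and of -0.26 (-0.30 to -0.21) in the PBS arm. It was higher in BuOE than in PBS libraries, both with radiation (0.49) and without it (0.71). The ratio of Col11a1 to Col5a1 was 0.0491 in the irradiated BuOE library, 0.0583 in the irradiated PBS library, 0.0362 in the BuOE library and 0.0393 in the PBS library. It was higher in the irradiated library of both arms, with a log2 difference of 0.44 (0.25 to 0.63) in the BuOE arm and of 0.57 (0.44 to 0.70) in the PBS arm. The ratio of Col3a1 to Col1a1 also lay higher in the irradiated library of both arms (0.09 in the BuOE arm and 0.64 in the PBS arm).

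**Figure D4:**
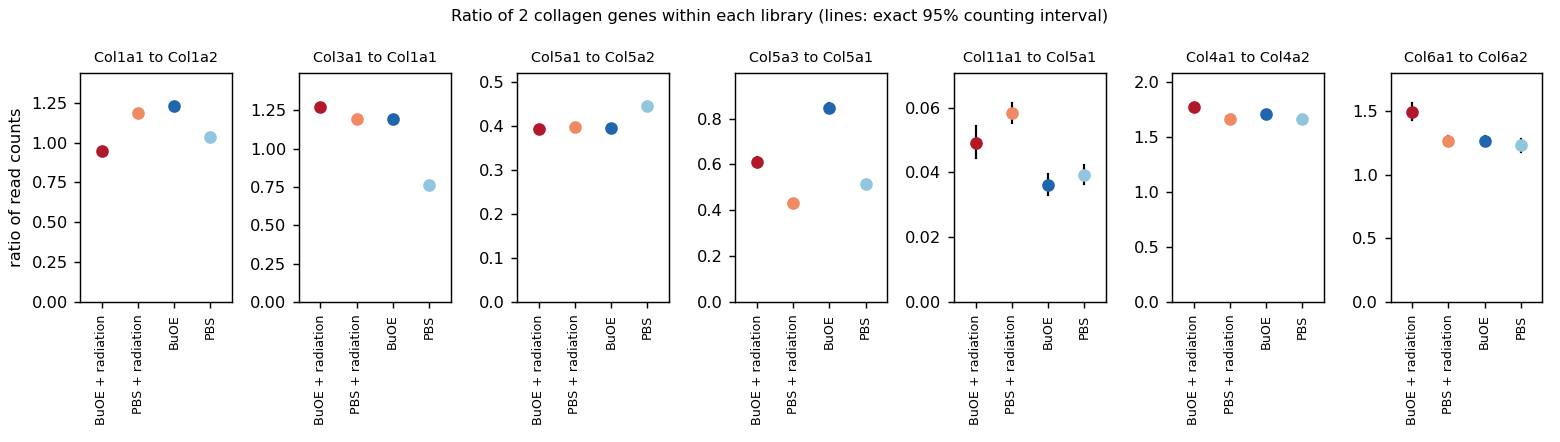
Ratio of the read counts of a pair of collagen genes within each library, with the exact 95% counting interval; each panel has its own axis from 0. Col5a1 to Col5a2 spans 1.13-fold and Col4a1 to Col4a2 1.07-fold over the 4 libraries, while Col5a3 to Col5a1 spans 1.958-fold and Col3a1 to Col1a1 is low in the PBS library alone.

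Likeness of pattern was measured as the distance between profiles of log2 CPM over the 4 libraries, each centred on its mean, where 0 is the same profile. Of the 21 pairs of members, Col1a2 and Col5a1 were nearest (0.07), followed by Col5a1 and Col5a2 (0.15), Col1a2 and Col5a2 (0.17) and Col1a1 and Col1a2 (0.30). Col5a3 and Col11a1 were farthest apart (1.17). Col3a1 was 0.58 or more from each other member. The candidates were 9455 other protein-coding genes that averaged 10 CPM or more. Gene models, ribosomal protein genes and mitochondrially encoded genes had been left out by symbol. Among these candidates the nearest to Col5a1 was Hic1, a transcriptional repressor, at 0.05, followed by Cntln (0.08) and Me2 (0.10). Nearest to Col1a2 were Dzip3 (0.08), Cntln (0.10) and Hic1 (0.10), and nearest to Col5a2 were Cntln (0.11), Colec12 (0.13) and Lsp1 (0.14). The nearest to Col1a1 were Csgalnact1, an enzyme of chondroitin sulfate synthesis, at 0.12, Tvp23a at 0.16 and Gas1, a membrane protein of hedgehog signalling, at 0.18. Near Col3a1 lay Lgr6 (0.25), the matricellular gene Thbs2 (0.30) and Tmem119 (0.32). The gene nearest to Col5a3 was Robo1, a receptor of Slit proteins, at 0.03, before Homez (0.07) and Slc27a4 (0.09), and those nearest to Col11a1 were Adcyap1r1 (0.14), the neuropeptide gene Cck (0.19) and Spp1, which encodes osteopontin (0.23). With 4 libraries such distances describe these cultures only.

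Of the 4 other fibrillar collagen genes, Col2a1 of cartilage stood at 0.136 to 0.453 CPM and did not pass the filter. Col11a2 lay near 1 CPM and Col24a1 at 2.49 to 5.28 CPM. Col27a1 stood at 26.7 CPM in the irradiated BuOE library, 34.6 in the irradiated PBS library, 60.4 in the BuOE library and 33.1 in the PBS library. It was thus highest in the BuOE library, as was Col5a3, and lower in the irradiated BuOE library than in the BuOE library, with a log2 ratio of -1.18.

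Genes that fold, modify and trim procollagen had medians near 0 in the radiation comparisons. Of the 31 measured, 13 were above 0 in the irradiated BuOE against the BuOE library, where 46.2% of all genes were (median -0.02), from -0.88 for Bmp1 to 1.06 for Tll1, both procollagen C-proteinases. In the irradiated PBS against the PBS library 16 were above 0, where 50.4% of all genes were (median 0.03), from -0.46 for Pcolce2 to 1.49 for P3h2, a prolyl 3-hydroxylase. Between the irradiated libraries 27 of 31 were lower in the BuOE library, against 56.2% of all genes, and 4 of them at least 2-fold lower, against 5.92%. Their median was -0.54, beside a median of -1.18 for the fibrillar collagens. Pcolce, the enhancer of the procollagen C-proteinase, was lowest at 59.1 against 163 CPM (-1.46). P4hb, the beta subunit of prolyl 4-hydroxylase, stood at 1576 against 1357 CPM (0.22), and P4ha1, a catalytic alpha subunit, had the highest ratio (0.46). Serpinh1, the collagen chaperone HSP47, stood at 509.5 against 777 CPM (-0.61), and Lox, which cross-links fibrils, at 866 against 1336 CPM (-0.62). P4ha1 was above 0 in both radiation comparisons (0.89 in the BuOE arm and 0.64 in the PBS arm), while Col1a1 was below 0 in the BuOE arm. Without radiation, 22 of 31 processing genes were lower in the BuOE than in the PBS library, against 51.2% of all genes (median -0.20). At least 2-fold lower were 6, against 4.23%, and at least 2-fold higher 2, against 8.72%. Lox (-1.06), Pcolce (-1.10) and Serpinh1 (-0.58) were lower there too, and P4ha1 was higher (0.22).

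Genes of proteins that organise fibrils or bind collagen differed in direction. Of 13 measured fibril-organising genes, 10 were above 0 in the irradiated PBS against the PBS library, against 50.4% of all genes (median 0.57), from -0.21 for Fmod to 1.58 for Col14a1, and 10 were below 0 in the irradiated BuOE against the irradiated PBS library, against 56.2% of all genes (median -0.43). Fn1, which encodes fibronectin, was the most abundant, at 3997 CPM in the irradiated BuOE library and 5576 in the irradiated PBS library (-0.48), followed by the proteoglycan gene Bgn at 1483 and 2100.5 CPM (-0.50). The lowest ratio was that of Aspn (-2.69), at 0.453 against 3.28 CPM. Thbs2 stood at 349 CPM in the irradiated BuOE library against 1067 in the irradiated PBS library (-1.61), and the fibril-associated proteoglycan gene Dcn was higher (0.41), as was Prelp (1.38). Among 8 measured collagen receptors, 3 were above 0 in that comparison, against 43.8% of all genes (median -0.11), from -0.75 for Mrc2, an endocytic collagen receptor, to 0.74 for Lair1. Itgb1, the integrin beta subunit that collagen-binding integrins share, was the most abundant, at 1497 against 1594 CPM (-0.09). The receptor tyrosine kinase gene Ddr2 stood at 236 against 271 CPM (-0.20). Itga11, the alpha subunit of a fibroblast collagen-binding integrin, was higher in the irradiated library of both arms (1.00 in the BuOE arm and 1.42 in the PBS arm), with levels of 6.37 to 26.5 CPM. Of 11 genes of collagen-degrading proteases and their inhibitors, 8 were below 0 between the irradiated libraries, against 56.2% of all genes (median -0.33), with Fap lowest (-1.497), and Mmp13, a collagenase, stood at 218 against 160 CPM (0.45).

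Known regulators of collagen genes had a median near 0. Of 26 measured, 14 were above 0 between the irradiated libraries, against 43.8% of all genes, with a median of 0.03. The other 12 were below 0, against 56.2%. The list was not split into genes that activate and genes that repress collagen transcription, so its median gives no direction of regulation. Tgfbr1, a receptor of TGF-beta, was lowest at 67.9 CPM in the irradiated BuOE library against 138 in the irradiated PBS library (-1.02), and Sp1, a factor that binds GC boxes, was highest at 282 against 171 CPM (0.72). Ybx1, the most abundant, stood at 518 against 480 CPM (0.11), and Tgfb1 at 219.6 against 281 CPM (-0.36). Creb3l1, a membrane-bound factor that activates Col1a1 in mouse bone, stood at 35.1 against 66.8 CPM (-0.93), and 42.9 in the BuOE library against 77.5 in the PBS library (-0.85).

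**Figure D5:**
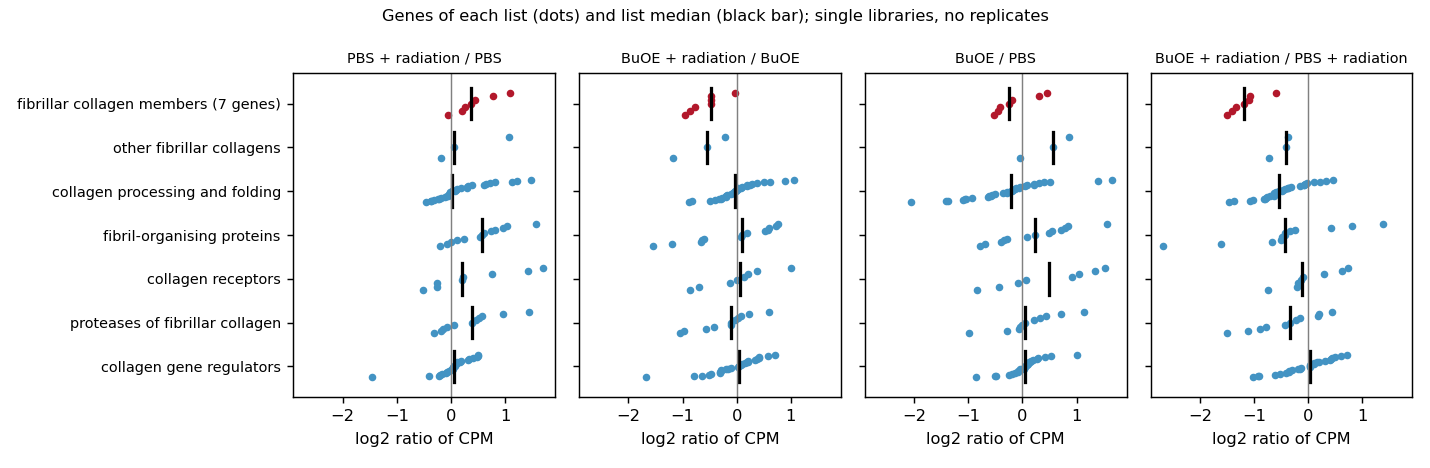
Log2 ratios of the measured genes of each list (dots) with the list's median (black bar) in the 4 comparisons of single libraries. In the panel of the irradiated libraries the fibrillar collagens (red) have a median of -1.18 and the processing genes one of -0.54. The regulators, not split into activators and repressors, have one of 0.03.

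A model with additive terms for radiation and BuOE over all 4 libraries, which takes the interaction as error and leaves 1 residual degree of freedom, was fitted as the test across all genes. The edgeR quasi-likelihood test with Benjamini-Hochberg adjustment called 0 of 14365 genes for radiation (0%) and 0 for BuOE (0%), with 1076 and 2954 genes at an unadjusted p under 0.05. By limma-voom the counts were 0 and 0, while DESeq2 called 112 of 14365 genes (0.78%) for radiation and 866 of the 12694 genes with an adjusted p (6.82%) for BuOE. By edgeR the adjusted p of the 7 members lay between 0.689 and 0.973 for radiation and between 0.179 and 0.793 for BuOE. The BuOE term averages over the irradiated and the unirradiated pair of libraries, and it was -0.93 for Col11a1, -0.85 for Col1a1, -0.81 for Col1a2, -0.75 for Col5a1, -0.66 for Col5a2, -0.48 for Col3a1 and -0.14 for Col5a3. In the unirradiated pair alone Col3a1 (0.45) and Col5a3 (0.30) were higher in the BuOE library than in the PBS library. The radiation term likewise averages over the PBS and the BuOE arm. It was -0.21 for Col1a1, with arm ratios of 0.44 (PBS) and -0.86 (BuOE), and 0.16 for Col3a1, with 1.09 and -0.77. Radiation within an arm was thus not tested by this model. DESeq2 alone called Col1a2 (adjusted p = 0.0182) and Col5a1 (adjusted p = 0.0323) for BuOE and no member for radiation.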

How the data were processed

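The deposited file holds unnormalized gene counts of the 4 libraries. The submitters' processing notes name the build GRCm39 and the tools featureCounts, Trim Galore (0.6.4), Salmon (1.4.0) and edgeR (4.2.2), with no role given. Strand setting and treatment of reads that map to several places are not given in the sources used here. Symbols, exon lengths and coding exons came from GENCODE M21 (GRCm38) by Ensembl ID, with no coordinates carried over, and promoters from RefSeq (GRCm38.p6). Counts were scaled with TMM factors from all genes (edgeR 4.0.16, R 4.3.3), which were 0.972 for the irradiated BuOE, 0.992 for the irradiated PBS, 1.05 for the BuOE and 0.987 for the PBS library. Log2 ratios used a prior count of 2. A ratio's interval is the exact binomial interval of its counts at 95%, and that of a difference or a change of a ratio comes from the Poisson variance of its counts. DESeq2 1.42.0 and limma 3.58.1 were alternatives, with a threshold of 0.05 on adjusted p. Simulated counts, with a radiation effect equal in both arms, were used to try the PBS-arm ratio, its interval and the additive radiation term. Arm differences, chain ratios and profile distances were not simulated. Other scalings, filters and a prior count of 0.5 were tried, and 0 sample columns were left unused. The members, the gene lists and the comparisons were chosen with earlier results of these data known. Named genes are the members, for each list the 2 most abundant genes and the extremes of a described comparison, and the 3 nearest in profile; Serpinh1, Dcn and the protease genes were named after their values were seen.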

Additional observations from a re-analysis of the deposited data

Results flagged for a closer look

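For 6 fibrillar collagen genes the radiation log2 ratio had opposite signs in the 2 arms, each arm being 1 pair of libraries. It was above 0 in the PBS arm and below 0 in the BuOE arm, as for 23.3% of all genes. The ratio of the BuOE arm minus that of the PBS arm was -1.86 for Col3a1, -1.30 for Col1a1, -0.83 for Col5a2, -0.81 for Col11a1, -0.73 for Col1a2 and -0.68 for Col5a1. The difference was not tested, since each condition has 1 library. For Col11a1 the opposite sign turned with the scaling: its ratio in the BuOE arm was -0.04 and had a counting interval that includes 0.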

How the results depend on the processing

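Of 35 member ratios, 32 kept their sign in all 9 alternatives. The alternatives with no low-count filter and with a filter of 10 CPM kept the main scaling factors. They could not change a member's ratio. The exceptions were Col11a1 for radiation in the BuOE arm, with DESeq2 size factors and with TMM factors from the kept genes (an alternative chosen after seeing the data), and Col1a1 and Col5a2 for BuOE without radiation, with the fibroblast marker sum. The median of the 7 members for irradiated BuOE against BuOE was -0.44 with DESeq2 factors, -0.59 with library size alone, -0.51 with upper-quartile factors, -0.57 without mitochondrial genes, -0.71 with the marker sum and -0.43 with the kept-gene factors. For irradiated PBS against PBS it was 0.30 with the marker sum. For BuOE against PBS it was -0.15 with library size, -0.21 with upper quartile, -0.15 without mitochondrial genes, and its sign was reversed, at 0.0693, with the marker sum. For irradiated BuOE against irradiated PBS it was -1.11 with DESeq2 factors, -1.21 with library size, -1.03 with the marker sum and -1.11 with the kept-gene factors. The difference between arms was -0.78 with DESeq2 factors, -0.95 with library size, -0.93 without mitochondrial genes, -0.996 with the marker sum and -0.78 with the kept-gene factors. The median of all genes lay beyond 0.1 from 0 with library size (-0.14 in the BuOE arm, -0.10 between irradiated libraries, -0.15 for the difference), without mitochondrial genes (-0.12 and -0.13 for the BuOE arm and the difference) and with the marker sum (-0.26, 0.30 and -0.20 for the BuOE arm, BuOE against PBS and the difference). The additive model called 112 genes for radiation and 866 for BuOE with DESeq2, and 283 for BuOE with edgeR and no filter; the cause was not tested. The prior count left the members' medians within counting error, and the filters could not move them. No paired analysis was possible because the conditions share fewer than 2 replicate numbers. The additive model fits 1 radiation term common to both arms and gives no estimate within an arm. With 1 library each, no condition could be left with a library fewer. Counting error limits Col11a1 most.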
